A study of Mus musculus with 4 samples.

Results

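The 52 genes described here encode the vacuolar proton pump (V-ATPase), its accessory subunits, the cathepsins and the lysosome-associated membrane proteins (LAMPs). They were picked by a rule on the symbol from the 22063 genes measured in ID8 cells. The rule was set with earlier results of these data known. It takes every symbol that starts with Atp6v0 or Atp6v1, the pair Atp6ap1 and Atp6ap2, every Cts symbol and every Lamp symbol with a digit. By role the 52 genes comprised 13 subunits of the V1 sector, 9 of the V0 sector, 2 accessory subunits, 23 cathepsins, 4 LAMPs and Atp6v1fnb, a neighbor of Atp6v1f that encodes no subunit. ID8 cells are an established line of mouse ovarian cancer. The shCtrl cells carried a control shRNA and are labelled WT, and the shUSP9X cells carried an shRNA against USP9X, a deubiquitinase, and are labelled as knockdown. Poly(A)-enriched RNA was sequenced in 2 libraries per group, with 17232006 and 15611363 estimated counts for shCtrl and 19978889 and 17021261 for shUSP9X. The labels do not say whether the libraries of a group came from separate cultures or how many shRNA sequences the shUSP9X cells carried, and they name no further treatment, so p-values measure only the spread between these libraries.

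The V-ATPase pumps protons into lysosomes and other compartments. Its cytosolic V1 sector hydrolyzes ATP and turns a rotor, and its membrane-embedded V0 sector lets protons pass as the ring of c subunits turns. The acid pH allows cathepsins, a group of proteases made as inactive precursors, to mature and to degrade proteins, while the heavily glycosylated LAMPs line the inner face of the lysosomal membrane. Many lysosomal genes carry an E-box of the CLEAR type in their promoter, which the transcription factor TFEB and its relatives TFE3 and MITF bind.

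Promoter windows of 300 bases, from 250 bases before to 50 bases after the annotated start (RefSeq, GRCm38.p6), were found for 42 of the 52 genes. The E-box CACGTG, which reads the same on both strands, was present in 10 of these 42 genes (23.8%) and in 8.09% of all 27025 genes with a window. Its longer form TCACGTGA, which contains the first motif, was present in 5 of 42 genes (11.9%) and in 1.12% of all genes. A still longer palindrome, with a G before and a C after TCACGTGA, was in 0 of 42 genes and in 0.37% of all genes. The 5 genes with TCACGTGA were Atp6v0d1, Atp6v0e, Atp6v1a, Ctsa and Ctsd. The matches are given as a description of the letters in these windows, and binding was not measured. The stretches of 30 bases around the longer motif are shown for these 5 genes because this form is rarer than CACGTG among all genes, with the motif in capitals. They lie at chr8:105566050-105566079 (minus strand) for Atp6v0d1, chr17:26676387-26676416 (plus strand) for Atp6v0e, chr16:44139373-44139402 (minus strand) for Atp6v1a, chr2:164833749-164833778 and chr2:164833766-164833795 (plus strand) for Ctsa, which holds 2 overlapping stretches with a copy each, and chr7:142387908-142387937 (minus strand) for Ctsd.
Atp6v0d1: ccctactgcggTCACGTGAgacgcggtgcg
Atp6v0e: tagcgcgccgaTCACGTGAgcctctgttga
Atp6v1a: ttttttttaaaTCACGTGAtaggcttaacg
Ctsa, copy 1: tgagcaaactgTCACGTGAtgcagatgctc
Ctsa, copy 2: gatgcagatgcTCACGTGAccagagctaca
Ctsd: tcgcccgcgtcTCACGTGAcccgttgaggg

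Lamp1 held 4 copies of CACGTG within 64 bases just upstream of its start, at chr8:13159094-13159157 (plus strand), more copies than in any other window of the genes described here. The copies are in capitals.
Lamp1: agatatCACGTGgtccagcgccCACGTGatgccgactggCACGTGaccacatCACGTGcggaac

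The knockdown was visible at the RNA level. Usp9x (chrX:13071498-13173328) stood at 298 and 282 CPM (counts scaled to library size with TMM factors) in shCtrl and at 19.7 and 20.5 in shUSP9X. This is a 14.4-fold difference without the GC and length offset described further on (log2 fold change -3.85, SE 0.06, edgeR adjusted p = 4.7e-26). With that offset the log2 fold change of Usp9x was smaller, at -2.31 (edgeR adjusted p = 4.0e-20). On the transcript nearest to the length that its counts and FPKM imply, the offset gave -3.09. Most of 10 markers of the ovarian surface, epithelial and mesothelial type were abundant in every library. Of the 8 tested, 3 were lower and 3 higher in shUSP9X, beside 33.6% and 33.8% of all genes tested. With the GC and length offset described further on, 5 were lower and 2 higher, beside 27.9% and 35.2% of all genes. Krt19, a keratin, stood at 703 and 711 CPM in shCtrl and at 786 and 751 in shUSP9X. It was called higher without the offset (log2 fold change 0.12, edgeR adjusted p = 0.00274) but lower with it (-0.24, edgeR adjusted p = 2.4e-07). Msln, which encodes mesothelin, stood at 473 and 492 CPM against 352 and 346 (log2 fold change -0.47, edgeR adjusted p = 1.3e-11). Wt1 (-0.52, edgeR adjusted p = 4.0e-12) and Gata6 (-0.54, edgeR adjusted p = 2.0e-08) were lower too. With the offset Msln was at -0.78, Wt1 at -0.76 and Gata6 at -0.79. The keratin genes Krt8 (314 and 324 CPM against 602 in both shUSP9X libraries) and Krt18 (391 and 372 against 600 and 592) were 1.89-fold and 1.56-fold higher (edgeR adjusted p = 5.5e-18 and 1.3e-14). Their log2 fold changes of 0.92 and 0.64 were 0.59 and 0.25 with the offset. Cdh1, which encodes E-cadherin, was low, at 3.29 and 1.64 CPM against 2.63 and 3.15. Epcam, an epithelial adhesion molecule, stayed under 0.4 CPM in each library, and Krt7 was at 0 in both shCtrl libraries.

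Of the 52 genes, 29 had enough counts to be tested and 23 did not. The lowest count among the tested genes was 11. Among the 23, 15 were at 0 in every library, which allows up to 3 counts, or 0.152 to 0.19 CPM. They were Atp6v1g3, Atp6v1e2, Atp6v0d2, Lamp3, Lamp5 and 10 cathepsins, namely the protease Ctsg of neutrophil granules, Ctsll3, and the 8 placental cathepsins Cts3, Cts6, Cts7, Cts8, Ctsj, Ctsm, Ctsq and Ctsr. The remaining 8 had at most 10 counts in a library. Atp6v1b1, Atp6v1c2, Ctsk, Ctss and Atp6v1fnb had at most 1 count per library, and Atp6v1g2 had 5 and 7 in shCtrl against 6 and 7 in shUSP9X. Ctse, an aspartic protease, had 0 counts in both shCtrl libraries and 6 and 7 in shUSP9X. Its mean CPM in shUSP9X was 1.98-fold above a floor of 3 counts per library in shCtrl. Ctsf, a cysteine protease, had 5 and 10 counts in shCtrl against 0 in both shUSP9X libraries. Its mean CPM in shCtrl was 2.79-fold above the same floor in shUSP9X. Both ratios leave out the counting error of the higher group, so they are not lower bounds.

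Levels per transcript length were compared as FPKM, the authors' fragment values scaled to transcript length and library size. In shCtrl the highest were Atp6v0c, the c subunit of the proton-conducting ring, at 216 and 240, Lamp1 at 220 and 219, and Ctsl at 218 and 205. These first 3 did not separate beyond the spread of Atp6v0c. Ctsd followed at 155 and 166 and Atp6v1h, a regulatory V1 subunit, at 146 and 147. At the other end of the tested genes, Ctsw, Atp6v0e2, Atp6v0a4 and Ctso had mean levels between 0.541 and 0.911 FPKM in shCtrl. The ranges of the first 3 of these overlapped, and that of Ctso (0.602 and 0.48) overlapped only with Atp6v0e2. Among the a subunits, which set where in the cell the pump resides, Atp6v0a2 (15.5 ± 0.711, SD, n = 2) and Atp6v0a1 (13.0 ± 1.22) were far above Atp6v0a4 (0.813 ± 0.075) in shCtrl. Tcirg1, which encodes the a3 subunit of lysosomes and osteoclasts under another symbol, was at 23.1 ± 2.08 FPKM.

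**Figure D1:**
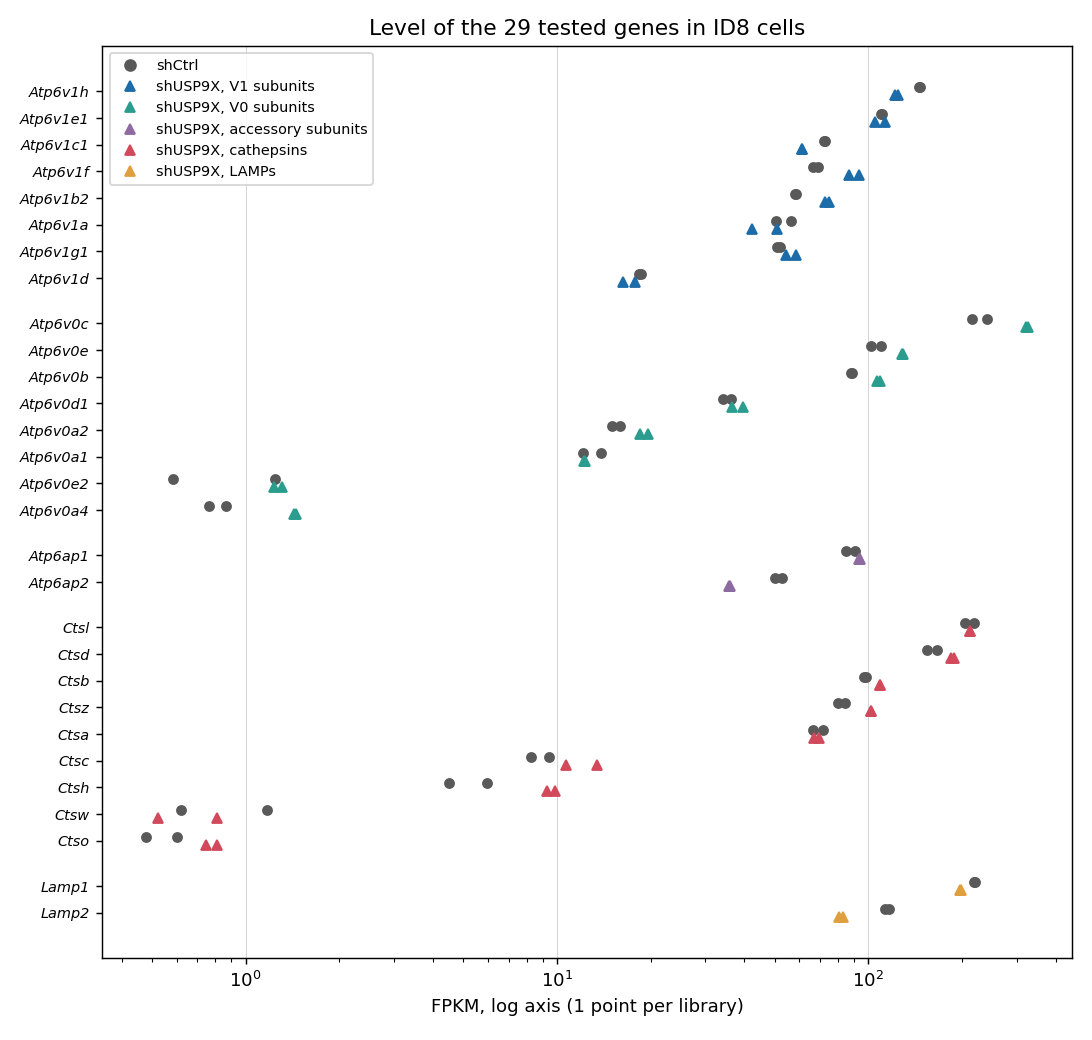
FPKM of the 29 tested genes on a log axis, grouped by role, with 1 point per library (gray circles shCtrl, colored triangles shUSP9X). Levels spanned from under 1 FPKM (Ctso in every library, Atp6v0a4 in shCtrl only) to over 200 FPKM (Atp6v0c, Ctsl and, in shCtrl, Lamp1), a far wider range than any difference between the groups.

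Of the 29 tested genes, 6 were lower and 15 higher in shUSP9X at an edgeR adjusted p under 0.05, and 8 were not called. The share called, 72.4%, stands beside 67.3% of all 11448 genes tested, of which 33.6% were lower and 33.8% higher. The median log2 fold change over the 29 genes was 0.18, against 0.00 over all genes. The median size of the change was 0.30 on the log2 scale, against 0.38 over all genes. With an unadjusted edgeR p under 0.05 and a fold change above 1.5, a pair of limits that the study's methods set on DESeq2 results, 2 of the 29 passed, both higher (Ctsh and Atp6v0a4) and none lower, beside 29.5% of all genes (18.7% lower and 10.8% higher). With the GC and length offset 6 of the 29 passed this pair of limits, all higher. Of all 11448 genes 1468 were lower and 1310 higher past these limits with the offset. In 26 of 29 genes the CPM of the groups did not overlap, beside 82.3% of all genes. The sum of all 52 genes was 4277.6 and 4296.9 CPM in shCtrl against 4502.2 and 4525.5 in shUSP9X.

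**Figure D2:**
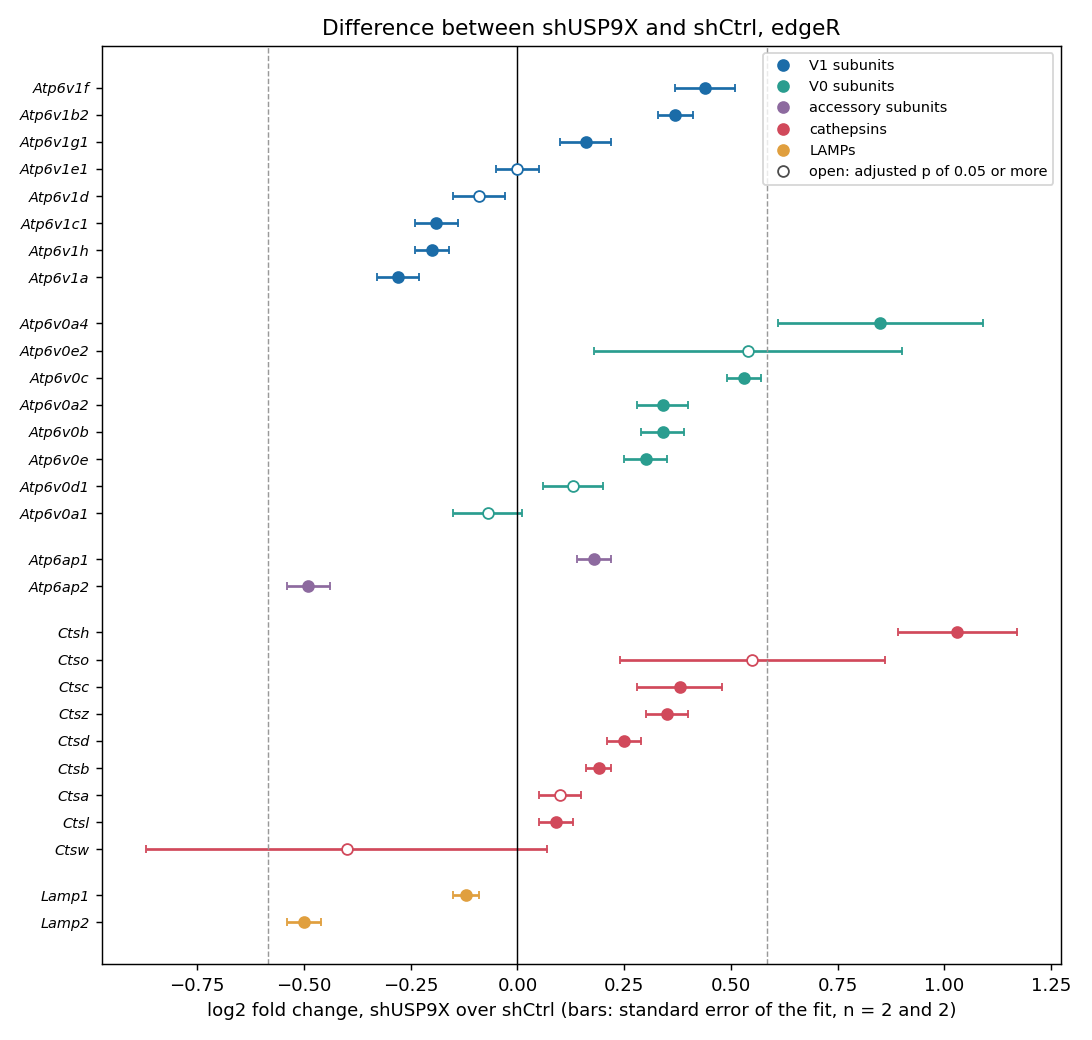
Log2 fold change of each tested gene, shUSP9X over shCtrl, with the standard error of the edgeR fit (n = 2 and 2), grouped by role. Filled points have an adjusted p under 0.05, dashed lines mark a 1.5-fold change, and only Ctsh and Atp6v0a4 lie past a line with a filled point.

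Of the 8 tested subunits of the V0 sector, 5 were higher and none lower, beside 33.8% and 33.6% of all genes. With the offset, 4 were higher and 2 lower, beside 35.2% and 27.9%. The median log2 fold change without the offset was 0.34, and the sum of the sector was 608.6 and 638.1 CPM in shCtrl against 799.3 and 822.3 in shUSP9X. Atp6v0c (chr17:24163866-24169702) had 252 and 280 CPM in shCtrl against 379 and 387 in shUSP9X. Both shUSP9X libraries were above both shCtrl libraries, and the difference was 1.44-fold (log2 fold change 0.53, SE 0.04, edgeR adjusted p = 3.3e-11). Atp6v0b, the c″ subunit of the same ring, had 84.7 and 82.2 CPM against 104 and 108 (log2 fold change 0.34, SE 0.05). The small membrane subunit Atp6v0e had 83.1 and 89.9 CPM against 107 in both shUSP9X libraries (0.30, SE 0.05). With the offset Atp6v0e was at 0.53 on its longest transcript (2812 bases), but at 0.00 and not called (edgeR adjusted p = 0.952) on the transcript nearest to the length of 822 bases that its counts and FPKM imply. Atp6v0d1, which couples the ring to the rotor, was not called, at 58.8 and 55.1 CPM against 60.3 and 64.9. Its adjusted p was 0.0721 in edgeR, and 0.0228 without shCtrl replicate 1. Atp6v0e2, the rare second form of e, was not called either, with 18 and 34 counts against 44 and 40, although without shCtrl replicate 2 its adjusted p was 0.0362 in edgeR.

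The a subunits differed among themselves. Atp6v0a4 (chr6:38048483-38124586), the a4 form known from kidney intercalated cells, had 49 and 39 counts in shCtrl against 95 and 80 in shUSP9X, which is 2.83 and 2.47 against 4.81 and 4.75 CPM. Its difference was 1.80-fold (log2 fold change 0.85, SE 0.24, edgeR adjusted p = 0.00347). DESeq2 gave an adjusted p of 0.0566, the highest of its alternatives, which started at 7.3e-04. The 5 marker genes of intercalated cells, among them Foxi1 and Slc4a1, were at 0 in all libraries. Atp6v0a2, the form of the Golgi and endosomes, had 83.8 and 78.2 CPM in shCtrl against 100 and 106 in shUSP9X (log2 fold change 0.34, SE 0.06, edgeR adjusted p = 4.9e-06). Atp6v0a1 had 42.6 and 48.1 CPM against 43.3 and 42.8, so its groups overlapped (edgeR adjusted p = 0.399). With the offset Atp6v0a1 (-0.24, edgeR adjusted p = 0.00559) and Atp6v0d1 (-0.21, edgeR adjusted p = 0.00522) were the 2 subunits of the sector called lower. Tcirg1 had 58.0 and 64.7 CPM against 79.3 and 73.9 (log2 fold change 0.32, SE 0.06, edgeR adjusted p = 7.7e-05), but was at 0.11 and not called with the offset (edgeR adjusted p = 0.119). Of 7 osteoclast markers, where the a3 form is abundant, Nfatc1 was the only one above 0.5 CPM, at 23.7 and 31.6 in shCtrl against 32.3 and 31.6 in shUSP9X. The difference between the a subunits in their response was not tested.

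Of 8 tested subunits of the V1 sector, 3 were lower and 3 higher (37.5% each), near the 33.6% and 33.8% of all genes. With the offset 1 was lower and 3 higher, beside 27.9% and 35.2%. The median log2 fold change without the offset was -0.04, and the sector summed to 1093.6 and 1086.1 CPM in shCtrl against 1069.6 and 1070.1 in shUSP9X. The lower ones were Atp6v1a, the catalytic subunit (log2 fold change -0.28, SE 0.05), Atp6v1h (-0.20, SE 0.04) and Atp6v1c1, which ties the stalks to V0 (-0.19, SE 0.05). The higher ones were the rotor subunit Atp6v1f (0.44, SE 0.07), the nucleotide-binding subunit Atp6v1b2 (0.37, SE 0.04) and the stalk subunit Atp6v1g1 (0.16, SE 0.06). Within the ATP-hydrolyzing head, where A and B alternate, Atp6v1a had 195 and 205 CPM in shCtrl against 160 and 170 in shUSP9X, while Atp6v1b2 had 164 and 163 against 214 and 207. The catalytic subunit was thus above its partner in both shCtrl libraries and below it in both shUSP9X libraries on the CPM scale, which is not corrected for length. On FPKM, which is, Atp6v1a was below Atp6v1b2 in every library, at 56.3 and 50.5 against 58.4 and 58.3 in shCtrl and at 42.4 and 50.8 against 74.9 and 72.7 in shUSP9X, so the order did not change. Atp6v1h (chr1:5070018-5162529) had 268 and 262 CPM in shCtrl against 230 and 232 in shUSP9X (edgeR adjusted p = 7.7e-05). The rotor subunit Atp6v1d (67.9 and 66.8 CPM against 66.0 and 60.3) and the stalk subunit Atp6v1e1 (145 and 142 against 148 and 140) were not called. The call on Atp6v1g1 was lost without shCtrl replicate 2 (adjusted p = 0.0703) and without shUSP9X replicate 2 (0.247, edgeR), and in DESeq2 (0.15). For Atp6v1a, limma-trend on log2(FPKM + 0.1) gave a log2 fold change of -0.20 with an adjusted p of 0.11.

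The accessory subunits differed in direction, and each changed sign with the offset. Atp6ap2 (chrX:12587801-12617049), the prorenin receptor that also takes part in assembling the pump, had 122 and 115 CPM in shCtrl against 84.7 and 83.6 in shUSP9X. Its log2 fold change was -0.49 (SE 0.05, edgeR adjusted p = 4.0e-09), but 0.33 with the GC and length offset. Atp6ap1 (chrX:74297097-74304721), the Ac45 subunit of the V0 sector, had 176 and 187 CPM against 204 and 206 (log2 fold change 0.18, SE 0.04, edgeR adjusted p = 9.8e-04). On FPKM the difference of Atp6ap1 did not pass, with an adjusted p of 0.0978 from limma-trend on log2(FPKM + 0.1).

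Of 9 tested cathepsins, 6 were higher, none lower and 3 not called, beside 33.8% higher and 33.6% lower among all genes. With the offset 5 were higher and 1 lower, beside 35.2% and 27.9%. Without it the cathepsins had a median log2 fold change of 0.25 and a sum of 1452.7 and 1444 CPM in shCtrl against 1662.2 and 1651.9 in shUSP9X. Ctsh (chr9:90054152-90076089), an aminopeptidase of the papain family, had 132 and 105 counts in shCtrl against 298 and 238 in shUSP9X, or 7.61 and 6.64 against 15.1 and 14.1 CPM. Without the offset this 2.05-fold difference was the largest among the 29 genes (log2 fold change 1.03, SE 0.14, edgeR adjusted p = 5.0e-07). With the offset on the longest transcript Ctso (1.20) and Ctsc (1.13) were above Ctsh (0.75). On the transcript nearest to the implied length only Ctso (1.24) was, with Ctsh at 0.79 and Ctsc at 0.77. The adjusted p of Ctsh lay between 2.1e-12 and 0.00221 under the alternatives. Ctsc, the dipeptidyl peptidase that activates granule proteases, had 20.7 and 22.8 CPM against 30.5 and 26.1 (log2 fold change 0.38, SE 0.10, edgeR adjusted p = 0.00189, and 0.077 without shUSP9X replicate 1). Ctsz, a carboxypeptidase, had 120 and 114 CPM against 149 in both shUSP9X libraries (0.35, SE 0.05). The aspartic protease Ctsd had 329 and 348 CPM against 407 and 397 (0.25, SE 0.04), and Ctsb had 462 and 453 against 523 and 522 (0.19, SE 0.03). Ctsl (chr13:64359337-64370890), the most abundant cathepsin per length, had 381 and 368 CPM in shCtrl against 394 and 403 in shUSP9X (0.09, SE 0.04, edgeR adjusted p = 0.0348). That call was lost in DESeq2 (adjusted p = 0.0639), on log2(FPKM + 0.1) in limma-trend (log2 fold change 0.00, adjusted p = 0.946) and without 3 of the 4 libraries in turn, with edgeR adjusted p values of 0.059 without shCtrl replicate 2, 0.109 without shUSP9X replicate 1 and 0.251 without shUSP9X replicate 2. Ctsa, a serine carboxypeptidase that protects other lysosomal enzymes, had 129 CPM in both shCtrl libraries and 140 and 137 in shUSP9X, with an edgeR adjusted p of 0.0608. Ctso (36 and 26 counts against 56 and 44) and Ctsw (25 and 12 against 20 and 11) were not called at this depth.

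**Figure D3:**
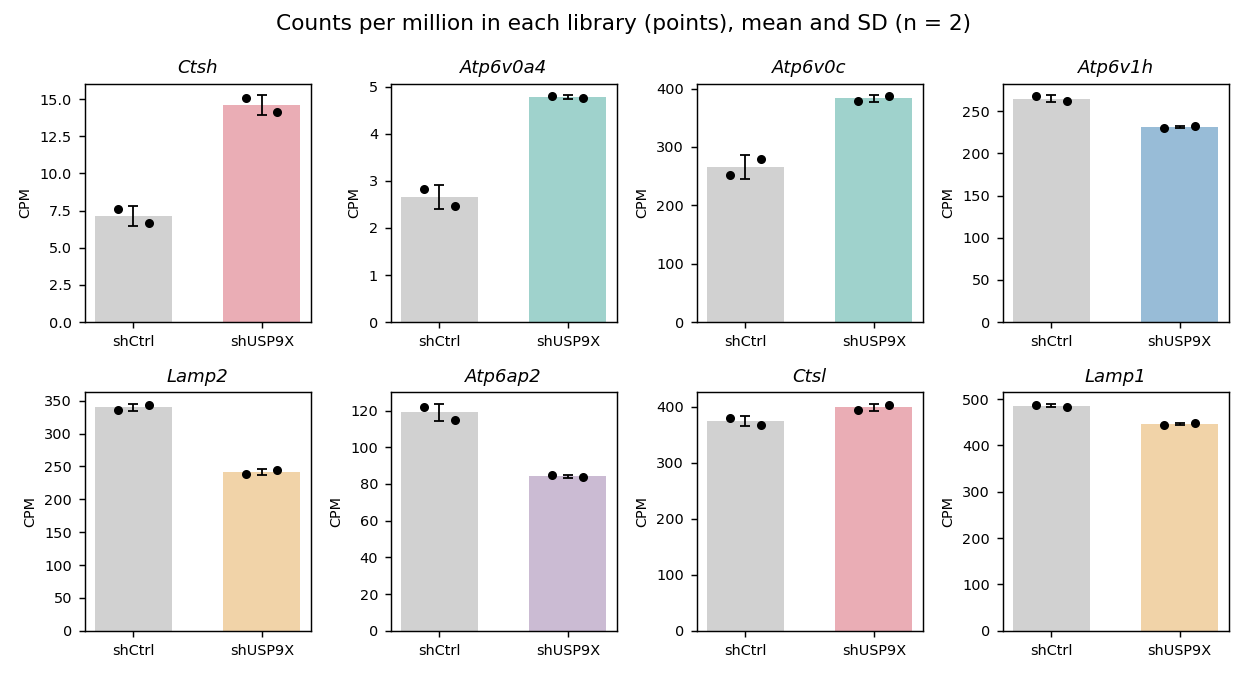
CPM of 8 genes in each library (points), with the mean (bar, from 0) and SD (n = 2) per group. Ctsh, Atp6v0a4 and Atp6v0c are higher and Lamp2 and Atp6ap2 lower in both shUSP9X libraries, a direction that the GC and length offset turned for Lamp2 and Atp6ap2, and the shifts of Ctsl and Lamp1 are small beside their levels.

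Ctsh and Ctsc are also expressed by macrophages, and some macrophage markers moved with the groups. Of 13 such markers, 3 were at 0 everywhere and 5 rose above 3 counts in both shUSP9X libraries only. Their sum was 14.5 and 14.2 CPM in shCtrl against 45.5 and 49.5 in shUSP9X, most of it from Mpeg1, which had 8.07 and 7.84 CPM against 25.6 and 29.2. Cd14 had 6.0 and 5.57 CPM against 10.3 and 9.85 (log2 fold change 0.80, edgeR adjusted p = 1.1e-04), while Mrc1, with too few counts to be tested, had 0.461 and 0.822 against 0.405 and 0.237. Itgam and Adgre1 were at 0 in shCtrl and at 3.64 and 4.45 and at 2.93 and 3.50 CPM in shUSP9X. C1qa, C1qb and Fcgr1 were at 0 in all libraries, Lyz2 did not exceed 0.119 CPM, and Ctss, a cathepsin abundant in macrophages, had 0 counts in shCtrl against 1 in each shUSP9X library. Of 9 dendritic cell markers, Cd74, tested only through its counts in shUSP9X, had 1 and 4 counts against 49 and 45. Ccr7 had 7.09 and 7.91 CPM against 15.5 and 13.7 (log2 fold change 0.97, edgeR adjusted p = 1.4e-06), while 5, among them Flt3 and H2-Ab1, were at 0 everywhere. Of 6 trophoblast markers, Prl2c2 has near-identical copies and so an uncertain count. Prl2c2, also tested only through its counts in shUSP9X, had 0.288 and 0.0632 CPM against 4.50 and 4.51. Psg16 had 0.865 and 0.506 CPM against 0.101 and 0.0594 and was not tested. The part of these markers in the rise of Ctsh and Ctsc was not tested. In bulk RNA, a change in the number of cells of a type and a change in RNA per cell cannot be told apart.

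Both tested LAMPs were lower in shUSP9X without the offset, while Lamp2 was higher with it, and their sum was 824.7 and 826.6 CPM in shCtrl against 682.6 and 691.8. Lamp2 (chrX:38401357-38456454), whose splice forms serve chaperone-mediated autophagy and lysosome fusion, had 336 and 344 CPM in shCtrl against 238 and 244 in shUSP9X. The difference was 1.41-fold (log2 fold change -0.50, SE 0.04, edgeR adjusted p = 1.0e-11). The table gives 1 value per gene, so the splice forms could not be separated. Lamp1 (chr8:13159161-13175338) had 488 and 483 CPM against 445 and 448, a difference of 1.09-fold (log2 fold change -0.12, SE 0.03, edgeR adjusted p = 0.00315). Its call was lost without shUSP9X replicate 1 (adjusted p = 0.0998) and without shUSP9X replicate 2 (0.0801, edgeR).

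The difference between the groups varied with the GC content of the transcript over all genes. Over all tested genes the median log2 fold change was -0.94 at 38 to 40% GC, -0.66 at 40 to 42%, -0.20 at 44 to 46% and 0.25 at 54 to 56%. Among the 29 genes, 10 had under 46% GC, a division chosen after the values were seen, of which 5 were lower and 3 higher, with a median log2 fold change of -0.14, against -0.46 for all genes in that range (66.0% lower and 11.5% higher). The 19 genes with 46% GC or more had 1 lower and 12 higher, with a median of 0.25, against 0.14 for all genes in that range (20.6% lower and 42.7% higher). Lamp2 (38.7% GC) and Atp6ap2 (40.5% GC), the 2 lowest values among the 29, were thus less reduced than the median gene of like GC content.

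An offset fitted to each library's trend on GC content and transcript length changed several of these results. It did not remove the trend fully, since the median over all genes with it was 0.25 at 38 to 40% GC and 0.22 at 40 to 42%, and 0.13 over all genes under 46%. With it, 5 of the 29 genes were lower and 14 higher, beside 27.9% and 35.2% of all genes (63.1% called in either direction). Of the 21 genes called without the offset, 10 were called in the same direction with it, 3 in the opposite direction and 8 not at all, and 6 others were called only with it. The 3 that changed direction were Lamp2 (log2 fold change 0.69, edgeR adjusted p = 1.4e-13), Atp6ap2 (0.33, edgeR adjusted p = 1.7e-06) and Atp6v1h (0.13, edgeR adjusted p = 0.00229). The medians given above for all genes of like GC content, 0.25 for Lamp2 and 0.22 for Atp6ap2, were also above 0. Ctsh (0.75) and Atp6v0a4 (0.73) stayed higher, with edgeR adjusted p values of 6.8e-05 and 0.0105. Atp6v0c was at 0.10 and Atp6v0a2 at 0.37, both still called, while Atp6v0b (-0.10), Ctsd (-0.07), Ctsz (-0.03), Atp6v1a (0.08), Atp6v1g1 (-0.04) and Atp6ap1 (-0.04) changed sign and were no longer called. Atp6v1f (0.02) and Atp6v1c1 (-0.06) were not called either. Lamp1 was at -0.35 (edgeR adjusted p = 1.0e-09), a larger decrease than without the offset. Ctsc (1.13), Ctso (1.20) and Ctsl (0.63) were higher with the offset than without, and Atp6v1d (0.48) was called only with it. The longest annotated transcript of Ctsl has 6168 bases, while the deposited counts and FPKM imply 1824, and with the transcript nearest to the implied length Ctsl was at 0.33. The V0 median went from 0.34 to 0.16, and that of V1 from -0.04 to 0.05. Which of these fits is closer to the RNA content of the cells was not tested.

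**Figure D4:**
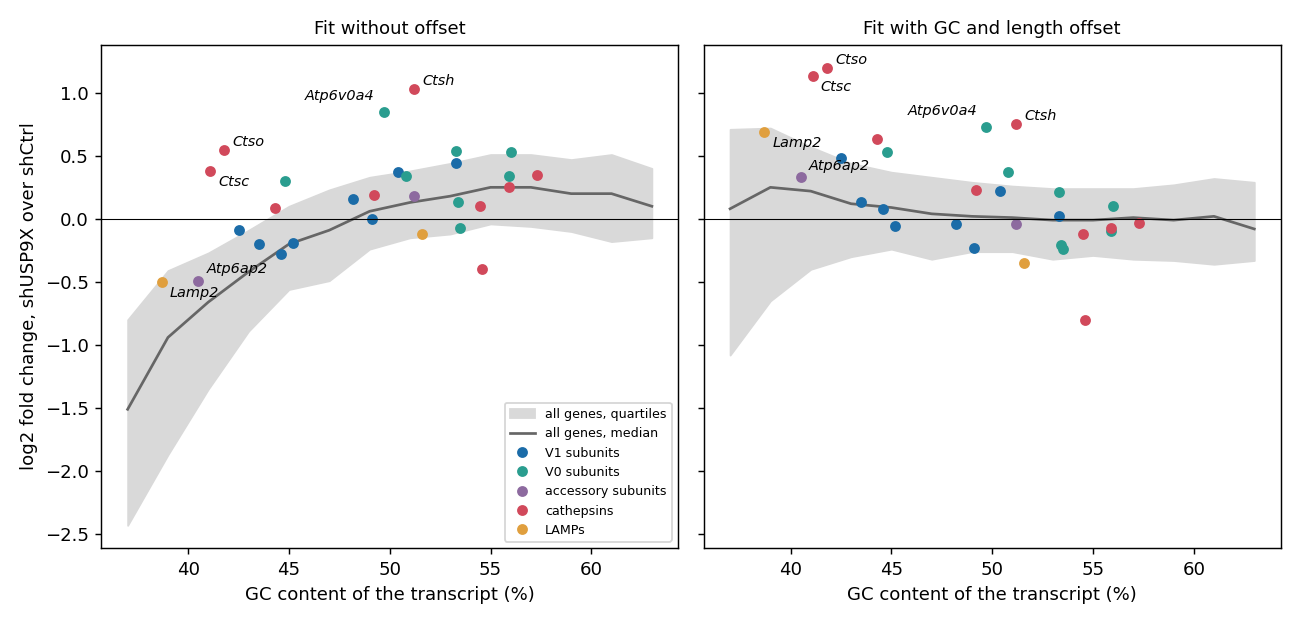
Log2 fold change against GC content of the longest transcript for the 29 genes (colored points), without (left) and with (right) the GC and length offset, over the median (line) and quartiles (band) of all genes tested in steps of 2% GC. Lamp2 and Atp6ap2 lie below 0 on the left and above 0 on the right, while Ctsh and Atp6v0a4 lie above the band in both panels.

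Of 13 tested genes that assemble or regulate the V-ATPase, 7 were lower (53.8%) and 2 higher (15.4%), beside 33.6% and 33.8% of all genes, and the median of the list was -0.20 on the log2 scale. Of the 13, 4 were lower by more than 1.5-fold, beside 18.7% of all genes. Dmxl1, which encodes rabconnectin-3α of the complex that joins V1 to V0, had 54.5 and 54.3 CPM in shCtrl against 7.08 and 7.06 in shUSP9X. Its log2 fold change was -2.94 (SE 0.10, edgeR adjusted p = 5.1e-19). Dmxl2, its paralog, had 9.63 and 10.3 CPM against 2.83 and 3.98 (-1.56, SE 0.20), and Wdr7, the partner of both, had 46.1 and 49.0 against 36.8 and 34.6 (-0.41, SE 0.08). Oxr1 and Ncoa7, which encode TLDc-domain proteins that bind the pump, had log2 fold changes of -1.41 (SE 0.04) and -1.24 (SE 0.12). Vma21, a chaperone of V0 assembly in the endoplasmic reticulum, had 76.4 and 72.0 CPM against 55.7 and 57.4 (-0.39, SE 0.06). Tmem199, another assembly factor, was higher (0.26, SE 0.08), a call lost without shCtrl replicate 2 (edgeR adjusted p = 0.0659) and without shUSP9X replicate 1 (0.0698) and in DESeq2 (0.0774), and Tcirg1 is given above with the a subunits. Most of the lower genes have longer transcripts of lower GC content than the median tested gene (3196 bases, 50.1% GC), such as Dmxl1 (12247 bases, 38.3% GC). With the GC and length offset Dmxl1 was at -1.10, Dmxl2 at -0.72 and Oxr1 at -0.89, all still lower, while Vma21 was at 1.12, higher (edgeR adjusted p = 5.2e-14). Ncoa7 (0.09), Wdr7 (-0.12, edgeR adjusted p = 0.149) and Tmem199 (0.01, edgeR adjusted p = 0.89) were not called with it. Tmem9b stayed lower (-0.24), and Rogdi (-0.54) and Tmem9 (-0.37) were called lower only with the offset. In all, 6 of the 13 were lower with it (46.2%) and 1 higher (7.69%), beside 27.9% and 35.2% of all genes, with a median of -0.14.

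Among the MiT/TFE factors and the mTORC1 machinery that controls them at the lysosome, 2 of 16 tested genes were lower (12.5%) and 9 higher (56.2%), beside 33.6% and 33.8% of all genes, and the median of the list was 0.23 on the log2 scale. With the offset 2 were lower (12.5%, Fnip1 and Lamtor1) and 6 higher (37.5%), beside 27.9% and 35.2% of all genes, with a median of 0.01. Lamtor1, a subunit of the Ragulator scaffold, thus changed direction, from 0.26 (edgeR adjusted p = 3.7e-04) to -0.17 (edgeR adjusted p = 0.0101). Tfeb, the main activator of the CLEAR motif, had 15.4 and 15.7 CPM in shCtrl against 27.4 and 29.2 in shUSP9X, a 1.82-fold difference (log2 fold change 0.86, SE 0.10, edgeR adjusted p = 4.0e-08). Tfe3 had 55.6 and 59.8 CPM against 79.2 and 74.7 (0.42, SE 0.06). With the GC and length offset these were 0.72 and 0.19, both called. Mitf had 29 and 14 counts against 9 and 7 (-1.55, SE 0.51, edgeR adjusted p = 0.01). It had enough counts to be tested only through the shCtrl libraries. Its adjusted p was 0.256 without shCtrl replicate 1, 0.0856 without shUSP9X replicate 1, 0.0909 without shUSP9X replicate 2, 0.122 in DESeq2 and 0.0984 in edgeR with the offset (-0.99). Fnip1, the partner of folliculin, had 79.6 and 84.1 CPM against 24.3 and 20.3 (-1.87, SE 0.08, and -0.49 with the offset), while Flcn itself was higher (0.41, SE 0.06), as was the mTORC1 scaffold Rptor (0.46, SE 0.05). Rragb, a Rag GTPase, had 8 and 5 counts against 25 and 17 (edgeR adjusted p = 0.0127, and 0.14 in DESeq2). It had enough counts to be tested only through the shUSP9X libraries, so this p-value is no separate support for the difference. Its log2 fold change of 1.53 was 1.3 without shCtrl replicate 2, 1.35 without shUSP9X replicate 1 and 1.68 without shUSP9X replicate 2. Transcript levels do not report where TFEB or TFE3 protein resides.

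All 4 tested genes on the list of protease inhibitors were higher without the offset, beside 33.8% of all genes, and their median was 0.38 on the log2 scale. Cstb, the cytosolic inhibitor cystatin B, had 118 and 107 CPM in shCtrl against 159 and 161 in shUSP9X (log2 fold change 0.51, SE 0.05, edgeR adjusted p = 1.2e-09). Serpinb9, an inhibitor of granzyme B, followed at 79.9 and 79.0 against 107 and 100 (0.39, SE 0.05), and the secreted cystatin Cst3 at 102 and 103 against 135 and 129 (0.37, SE 0.05). The serpin Serpinb6a was at 0.26 (SE 0.04). With the GC and length offset 2 of the 4 were called, Cstb (0.21) and Serpinb9 (0.99), both higher, beside 35.2% of all genes called higher.

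Of 11 tested genes that sort enzymes to the lysosome, 4 were lower and 4 higher (36.4% each), beside 33.6% and 33.8% of all genes, with a median of 0.04. With the offset 2 were lower (18.2%) and 3 higher (27.3%), beside 27.9% and 35.2% of all genes, with a median of 0.01. Sort1, the sorting receptor sortilin, had 181 and 186 CPM in shCtrl against 104 and 97.2 in shUSP9X (log2 fold change -0.86, SE 0.05, and -0.72 with the offset). The large mannose 6-phosphate receptor gene Igf2r had 243 and 249 CPM against 194 and 213 (-0.28, SE 0.05, and 0.01 with the offset). Gnptg, the γ subunit of the enzyme that starts the mannose 6-phosphate tag, was lower (-0.40, SE 0.11, edgeR adjusted p = 0.00304, but 0.06 in DESeq2 and 0.0847 without shUSP9X replicate 2), and Nagpa, which uncovers that tag, was higher (0.72, SE 0.15). Cln6, which helps enzymes to leave the endoplasmic reticulum, had 11.9 and 13.3 CPM against 20.4 and 20.7 (0.70, SE 0.12).

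Of 42 other acid hydrolases tested, 11 were lower (26.2%) and 16 higher (38.1%), beside 33.6% and 33.8% of all genes, with a median of 0.07. With the offset 13 were lower (31.0%) and 9 higher (21.4%), beside 27.9% and 35.2% of all genes, with a median of -0.02. DESeq2 called 7 lower and 8 higher, beside 23.1% and 24.6% of all genes. The offset turned the called direction of Psap, which encodes the saposin precursor, from 0.13 to -0.13 (edgeR adjusted p = 8.9e-04) and that of the ceramidase gene Asah1 from -0.26 to 0.14 (edgeR adjusted p = 0.00703). Sgsh, which removes sulfate from heparan sulfate, had a log2 fold change of 0.57 (SE 0.19, edgeR adjusted p = 0.00932, and 0.105 in DESeq2, 0.0706 without shCtrl replicate 2 and 0.149 without shUSP9X replicate 1 in edgeR). With the offset it was at 0.41 and not called (edgeR adjusted p = 0.0592). Ids, which removes sulfate from iduronate, had 63.2 and 65.8 CPM against 39.0 and 42.0 (-0.67, SE 0.07), but 0.18 with the offset (edgeR adjusted p = 0.0259). The DNase gene Dnase2a was at -0.51 (SE 0.14, and -0.84 with the offset), with an adjusted p of 0.00254 in edgeR and 0.064 in DESeq2.

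Of 22 tested genes of the lysosomal membrane, 8 were lower (36.4%) and 6 higher (27.3%), beside 33.6% and 33.8% of all genes, with a median of 0.03. With the offset 6 were lower and 6 higher (27.3% each), beside 27.9% and 35.2% of all genes, with a median of -0.04. Tpcn1, an endolysosomal cation channel, had 195 and 207 CPM in shCtrl against 352 and 373 in shUSP9X (log2 fold change 0.85, SE 0.04, edgeR adjusted p = 1.0e-15), and 0.72 with the offset. Slc17a5, the sialic acid exporter, had 12.2 and 11.7 CPM against 7.03 and 7.83 (-0.69, SE 0.15). The channel gene Tmem175 was at -0.61 (SE 0.19, edgeR adjusted p = 0.00591, but 0.0853 in DESeq2 and 0.137 without shCtrl replicate 2). Laptm5, a lysosomal protein of blood cells, had 1 and 0 counts in shCtrl against 30 and 23 in shUSP9X, and moved with the macrophage markers given above. It had enough counts to be tested only through the shUSP9X libraries, so its p-value is left out. Cd68, the LAMP-related protein of macrophages, had 74 and 68 counts against 118 and 85 and was not called (edgeR adjusted p = 0.125).

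**Figure D5:**
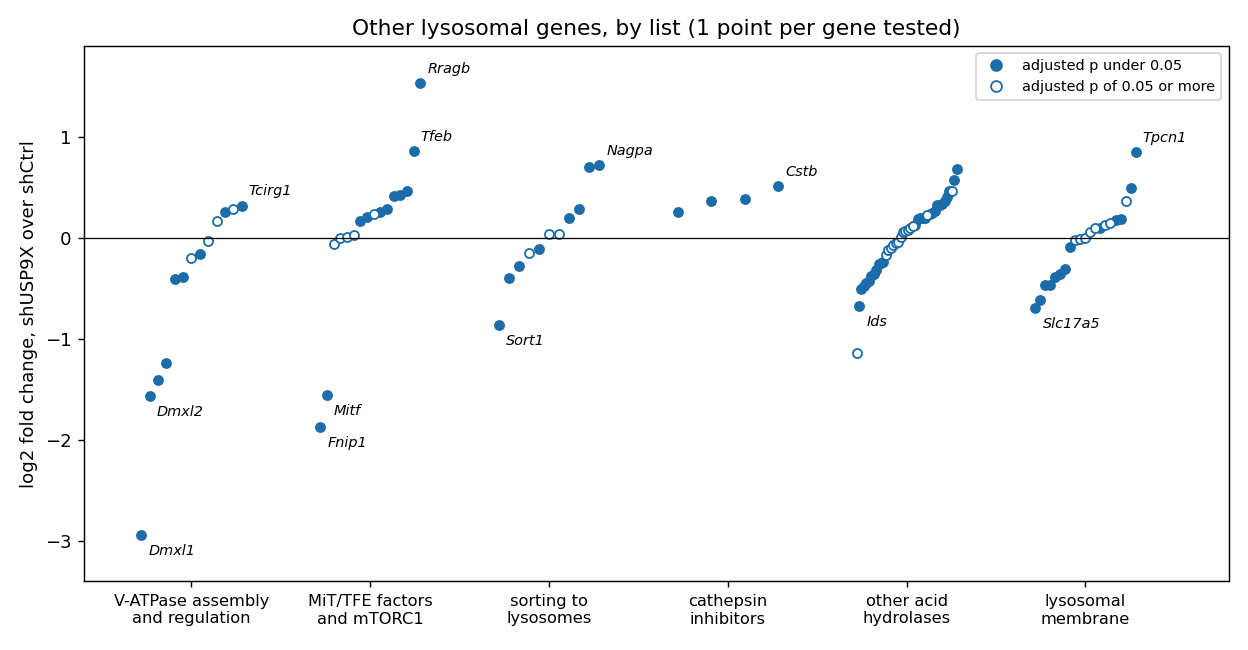
Log2 fold change of each tested gene on the 6 lists of other lysosomal genes, ordered within each list, with filled points at an adjusted p under 0.05. Laptm5 is left out, since shCtrl had 1 and 0 counts. Dmxl1, Fnip1, Dmxl2 and Mitf lie lowest, and all 4 inhibitors lie above 0 in this fit without the offset.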

How the data were processed

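RNA-seq libraries of ID8 cells (2 shCtrl and 2 shUSP9X) were compared by the groups in their labels. The authors deposited 1 table that holds, for each gene in each library, an estimated count and a value in FPKM. Per the labels, reads were filtered with fastp 0.18.0, and Bowtie2 2.2.8, HISAT2, StringTie 1.3.1 and RSEM were used. The paper names GRCm38, and the annotation release is not given in the sources used here. Coordinates, GC content and transcript length came from GENCODE M21 (GRCm38), which held 21973 of the 22063 identifiers. The preparation kit used here does not mark strand, so reads of overlapping genes cannot be told apart.

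Counts were planned as whole numbers. Between 6.3953 and 6.6899% were not, so the estimated counts were rounded. Genes passing filterByExpr (11448) were scaled with TMM factors. Their quasi-likelihood fit in edgeR 4.0.16 under R 4.3.3 gave two-sided p-values, with Benjamini-Hochberg adjustment over all 11448 genes and no replicate block. CPM values are TMM-scaled. With 2 libraries against 2, no permutation test can reach 0.05. Alternatives used DESeq2 1.42.0, other scalings and filters, limma-trend (limma 3.58.1) on log2(FPKM + 1) and log2(FPKM + 0.1) where the mean FPKM was 1 or more, the replicate block, a GC and length offset (loess, span 0.3, longest transcript) and each library left out. The offset on the transcript nearest to the implied length was added after seeing the data. Replicates of a group differed by more than counting error (a mean chi-square of 3.408 for shCtrl and of 2.226 for shUSP9X over the genes). Floors cover counting error only. The procedure was tested on simulated data.

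The members and lists were chosen with earlier results of these data known. The text was to name members past a 1.5-fold change and their isoform partners, the most abundant member of each role, Usp9x, the 2 lowest and 2 highest called genes of each list, and Tcirg1, Cd68, Tfeb, Tfe3, Mitf and Cstb. A gene that this rule names is not reported here. Other genes were named after their values were seen. The promoter windows are those of RefSeq.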

Additional observations from a re-analysis of the deposited data

How the results depend on the processing

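Among those of the 52 genes that each fit tested, which differ from the 29 under other filters, 5 to 7 were called lower and 12 to 17 higher under the alternatives run, and called genes among the 63 followed reversed only under the GC content and length offset. DESeq2 lost the call on 10 of 63 genes followed and reversed none. The labels share replicate numbers, but deviations of same-numbered libraries did not correlate (r = -0.0453), and the main fit used no pairing. This correlation cannot tell whether same-numbered libraries were prepared together. With the replicate block alone, all 63 genes followed kept their direction and side of the threshold. With 2 libraries per group and a common biological coefficient of variation of 0.0352, small differences pass, and p-values measure only the spread between these libraries. At this depth 23 of the 52 genes were not tested, and the causes of the changes below were not tested.

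The median log2 fold change of the tested genes (0.18) was 0.21 with upper-quartile scaling, 0.15 with library size only, 0.13 on both FPKM scales, 0.10 with the offset, 0.10 with the replicate block and the offset, and 0.03 with the offset on the transcript nearest to the implied length, a setting chosen after seeing the data. The V0 median (0.34) was 0.38, 0.31, 0.28 on log2(FPKM + 1), 0.29 on log2(FPKM + 0.1), 0.16, 0.18 and 0.07 under the same settings in that order. The V1 median (-0.04) was 0.05 with the offset, with and without the block. The cathepsin median (0.25) was 0.31 with the nearest transcript. Leaving out 1 library gave medians of 0.18 to 0.19 over the tested genes, -0.09 to 0.02 for V1, 0.31 to 0.38 for V0 and 0.22 to 0.30 for cathepsins. It gave 5 to 6 lower and 13 to 16 higher genes among those of the 52 tested.

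Over all genes, DESeq2 called 23.1% lower and 24.6% higher, log2(FPKM + 1) 29.8% and 31.5%, and log2(FPKM + 0.1) 29.7% and 31.5%. The offset called 27.9% lower and 35.2% higher, and the nearest-transcript offset 28.1% and 35.7%. DESeq2 called 7 hydrolases lower and 8 higher, 4 membrane genes lower, 1 assembly gene higher, 1 MiT/TFE and mTORC1 gene lower and 5 higher, and 2 sorting genes lower. On both FPKM scales 8 hydrolases and 3 membrane genes were higher, and 1 MiT/TFE and mTORC1 gene was lower, as with at least 10 counts in every library. With the offset, with and without the replicate block, 9 hydrolases, 1 assembly gene and 2 inhibitors were higher and 2 sorting genes lower. With the nearest transcript, 1 assembly gene was higher and 2 sorting genes were lower. Leaving out 1 library gave 1 to 3 assembly genes higher, 1 to 2 MiT/TFE and mTORC1 genes lower and 2 to 4 sorting genes lower.

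Among the 63 genes followed, reversals under the offset, which the replicate block left at the same log2 fold changes, were Ctsd -0.07, Atp6v0d1 -0.21, Ctsz -0.03, Lamp2 0.69, Ctsa -0.12, Atp6ap1 -0.04, Atp6v1e1 -0.23, Atp6v1d 0.48, Atp6ap2 0.33, Atp6v0b -0.10, Atp6v1h 0.13, Atp6v1g1 -0.04, Atp6v1a 0.08, Ids 0.18, Ncoa7 0.09, Vma21 1.12, Cst3 -0.06 and Igf2r 0.01. With the nearest transcript they were Ctsd -0.02, Atp6v0d1 -0.16, Ctsz -8e-05, Lamp2 0.45, Ctsa -0.13, Atp6v1e1 -0.19, Atp6v1d 0.53, Atp6v1c1 0.005, Atp6ap2 0.37, Atp6v0b -0.08, Atp6v1h 0.13, Atp6v1g1 -0.004, Atp6v1a 0.01, Ids 0.24, Ncoa7 0.23, Vma21 1.28, Cst3 -0.04 and Igf2r 0.11. Atp6v0d1, Ctsa, Atp6v1e1 and Atp6v1d were not called without the offset. Among list genes not followed, Lamtor1, Psap, Asah1 and Krt19 were called in opposite directions with and without the offset. With the nearest transcript, Galc went from -0.24 to 0.93 and Gnptab from -0.11 to 0.14, each called in both fits.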
